A study of Mus musculus with 5 samples.

Results

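The genes described here encode the mitochondrial ribosomal proteins. They were taken from a deposited gene table by symbol alone, as every row named Mrpl or Mrps followed by a number, and 77 of the 23997 rows met that rule (48 Mrpl and 29 Mrps). The 5 libraries of the series hold whole-kidney RNA of mice aged 8 weeks. Of these, 3 carry the genotype label of an uninduced control (control 0, 1 and 2) and 2 that of a Pkd1 knockout (knockout 0 and 1). Sample titles abbreviate the knockout as SKO, the design text writes PkdTKO, and neither name, nor the promoter or agent of the induction, is explained in the sources used here. The series was set up to study metalloproteinases in the remodelling of the tubule basement membrane in polycystic kidney disease. The labels do not state if the libraries are from separate animals, so a p-value measures the spread between these libraries only, which may be technical.

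Mitochondria keep their own ribosome. Its RNAs are made inside the organelle, but all of its proteins are encoded in the nucleus, translated in the cytosol and imported. This ribosome translates the few proteins of the mitochondrial genome, which are core subunits of the respiratory chain and of ATP synthase. The kidney tubule, and the proximal tubule above all, is rich in mitochondria, which power its salt and solute transport. The proteins fall into those with a counterpart in bacterial ribosomes and those specific to mitochondria. Mrpl names stand for the large subunit and Mrps names for the small one, with the exceptions of Mrps30 and Mrps18a, which sit in the large subunit, and of Mrps36, which is now known as a component of the 2-oxoglutarate dehydrogenase complex.

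The members lie on 17 chromosomes, with at most 10 on a single one (chromosome 11). The stretches just upstream of 5 of the 6 genes called lower below are shown, since a shared level shift raises the question of shared promoter letters, together with that of Mrpl22, which holds matches to a pair of the motifs searched. RefSeq promoter windows, of 250 bases before to 50 bases after an annotated start on GRCm38.p6 (the mm10 build), were matched by symbol for 68 of the 77 members, and Mrpl4 was among the 9 without one. Each sequence runs 5′ to 3′ on the gene's strand and ends before the more upstream of the RefSeq and GENCODE M21 starts. Capitals mark exact matches, on either strand, to GCGCATGC (a site of the factor NRF1), CCGGAAG (a site of ETS factors such as GABP) or AAGATGGC (a site of YY1), 3 factors known to act at promoters of mitochondrial genes.
Mrpl20: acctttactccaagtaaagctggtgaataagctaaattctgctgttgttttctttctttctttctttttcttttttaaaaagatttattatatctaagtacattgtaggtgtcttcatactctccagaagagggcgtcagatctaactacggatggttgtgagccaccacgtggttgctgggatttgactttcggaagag
Mrpl12: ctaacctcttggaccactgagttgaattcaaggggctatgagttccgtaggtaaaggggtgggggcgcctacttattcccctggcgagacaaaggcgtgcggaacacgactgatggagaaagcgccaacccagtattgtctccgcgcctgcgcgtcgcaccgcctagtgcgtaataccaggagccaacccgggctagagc
Mrps12: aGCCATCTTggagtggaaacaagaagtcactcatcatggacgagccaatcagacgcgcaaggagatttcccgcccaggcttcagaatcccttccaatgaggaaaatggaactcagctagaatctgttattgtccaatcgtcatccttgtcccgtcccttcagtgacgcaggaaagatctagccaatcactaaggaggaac
Mrpl53: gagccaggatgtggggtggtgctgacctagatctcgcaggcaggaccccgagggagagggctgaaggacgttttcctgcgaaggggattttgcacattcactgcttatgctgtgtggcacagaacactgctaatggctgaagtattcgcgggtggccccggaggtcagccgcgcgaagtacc
Mrpl44: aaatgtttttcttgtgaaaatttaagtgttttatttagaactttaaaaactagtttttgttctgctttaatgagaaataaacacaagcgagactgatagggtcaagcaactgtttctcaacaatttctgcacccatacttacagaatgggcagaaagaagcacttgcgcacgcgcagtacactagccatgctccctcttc
Mrpl22: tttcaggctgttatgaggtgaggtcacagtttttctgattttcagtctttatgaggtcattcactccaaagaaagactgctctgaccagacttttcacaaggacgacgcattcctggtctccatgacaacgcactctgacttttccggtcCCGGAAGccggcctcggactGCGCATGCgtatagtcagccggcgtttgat

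These stretches are chr4:155802678-155802877 (Mrpl20, plus strand), chr11:120484413-120484612 (Mrpl12, plus strand), chr7:28741822-28742021 (Mrps12, minus strand), chr6:83108858-83109039 (Mrpl53, plus strand), chr1:79775818-79776017 (Mrpl44, plus strand) and chr11:58171461-58171660 (Mrpl22, plus strand). Over the whole windows Mrpl20, Mrpl12 and Mrpl44 held no match, Mrps12 held 1 YY1 match and 1 ETS match, and Mrpl53 held 2 ETS matches that lie outside the bases shown. GENCODE M21 also places exons of an antisense RNA, Ccdc142os, in the stretch before Mrpl53. It places the start of Wdfy1, on the opposite strand, 125 bases from that of Mrpl44, with 126 exon bases shared. The stretch before Mrpl44 thus lies within Wdfy1. Sars2, also on the opposite strand, starts 172 bases from Mrps12, so the far end of that stretch, with its capitals, lies within Sars2. Among the 68 members the NRF1 letters were found in 8 (11.8%), the ETS letters in 25 (36.8%) and the YY1 letters in 12 (17.6%). Over the windows of 9479 tested genes the same shares were 5.89%, 19.7% and 5.24%, and over all 27025 genes with a promoter window they were 3.05%, 9.93% and 3.19%. The median log2 fold change between the groups, defined below, was -0.25 for the 37 members with any of the 3 motifs and -0.27 for the 31 without. By motif, it was -0.15 for the 8 with NRF1 letters (0 called) and -0.27 for the 60 without (5 called), -0.25 and -0.26 with and without ETS letters, and -0.27 and -0.26 with and without YY1 letters. The motifs were chosen after the expression values had been seen, and a match describes letters only.

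Depth is not stated with the values, which are FPKM, mapped fragments per unit of transcript length, scaled to the library's mapped fragments. Summed FPKM ran from 504914.2 to 507052.8 among controls and came to 493226.2 (knockout 0) and 462814.3 (knockout 1). Pkd1, the gene named by the label, had FPKM values of 3.22, 3.51 and 3.49 among controls, with 2.72 for knockout 0 and 3.60 for knockout 1 (log2 -0.09, adjusted p = 0.646). The transcript level therefore does not check the label, and the exons deleted are not given in the labels. Sex transcripts differed between the groups: Xist was at 0.0275, 0.0222 and 0.0257 among controls but at 30.8 (knockout 0) and 80.3 (knockout 1), and Y-linked Ddx3y was at 17.8, 18.6 and 18.0, then 7.30 and 0.00194. Knockout 0 thus held both transcripts, each at a level between the controls and knockout 1, so they do not assign that library to a single sex. No comparison below holds sex constant, so sex and genotype cannot be told apart. Summed markers of nephron segments, of podocytes and of endothelium were present in every library, although some markers of the proximal tubule and of the thick ascending limb are listed at 0 in at least 1 library.

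Nearly all mitochondrial ribosomal protein transcripts stood at a lower level in the libraries labelled as knockouts, most of them by a small amount. The difference was computed with limma on log2(FPKM + 1) over the 12640 rows whose mean FPKM reached 1, as that of all 77 members did, and none was listed at 0 in any library. The fitted log2 fold change, knockout minus control, was negative for 74 of the 77 (96.1%), against 53.0% of all tested genes. The median over the members was -0.26, with a range of -0.71 to 0.16, against a median of -0.02 over all tested genes. In 67 members (87.0%) both knockout libraries lay below every control, against 26.3% of all tested genes. In none did both lie above, against 21.9% of all tested genes, and in the other 10 the groups overlapped.

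Single members were less often past the threshold. With Benjamini-Hochberg adjustment over all tested genes and a limit of 0.05, limma called 6 members lower (7.79%), against 3.62% of all tested genes, and none higher, against 2.73% of all tested genes. At an unadjusted p under 0.05, 50 members were lower (64.9%, against 16.6% of all tested genes) and 0 higher. Of the members, 60 reached 0.1, the smallest two-sided p that the exact permutation test of 3 against 2 libraries can give, all 60 with a negative difference. Among all tested genes 20.5% reached it with a negative difference and 38.3% in either direction. The calls rest on each control: without control 0, control 1 or control 2, limma called 0 members lower, against 0.0396%, 0.617% and 0.0554% of all tested genes, while 37, 37 and 33 members were lower at an unadjusted p under 0.05, against 11.5%, 13.8% and 10.1% of all tested genes. Without knockout 0 it called 5 members lower, 3 of them among the 6 above, against 4.25% of all tested genes. Without knockout 1 it called 19, all 6 among them, against 9.09%. In these 2 fits the lone knockout library is assumed to vary as the controls do.

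**Figure D1:**
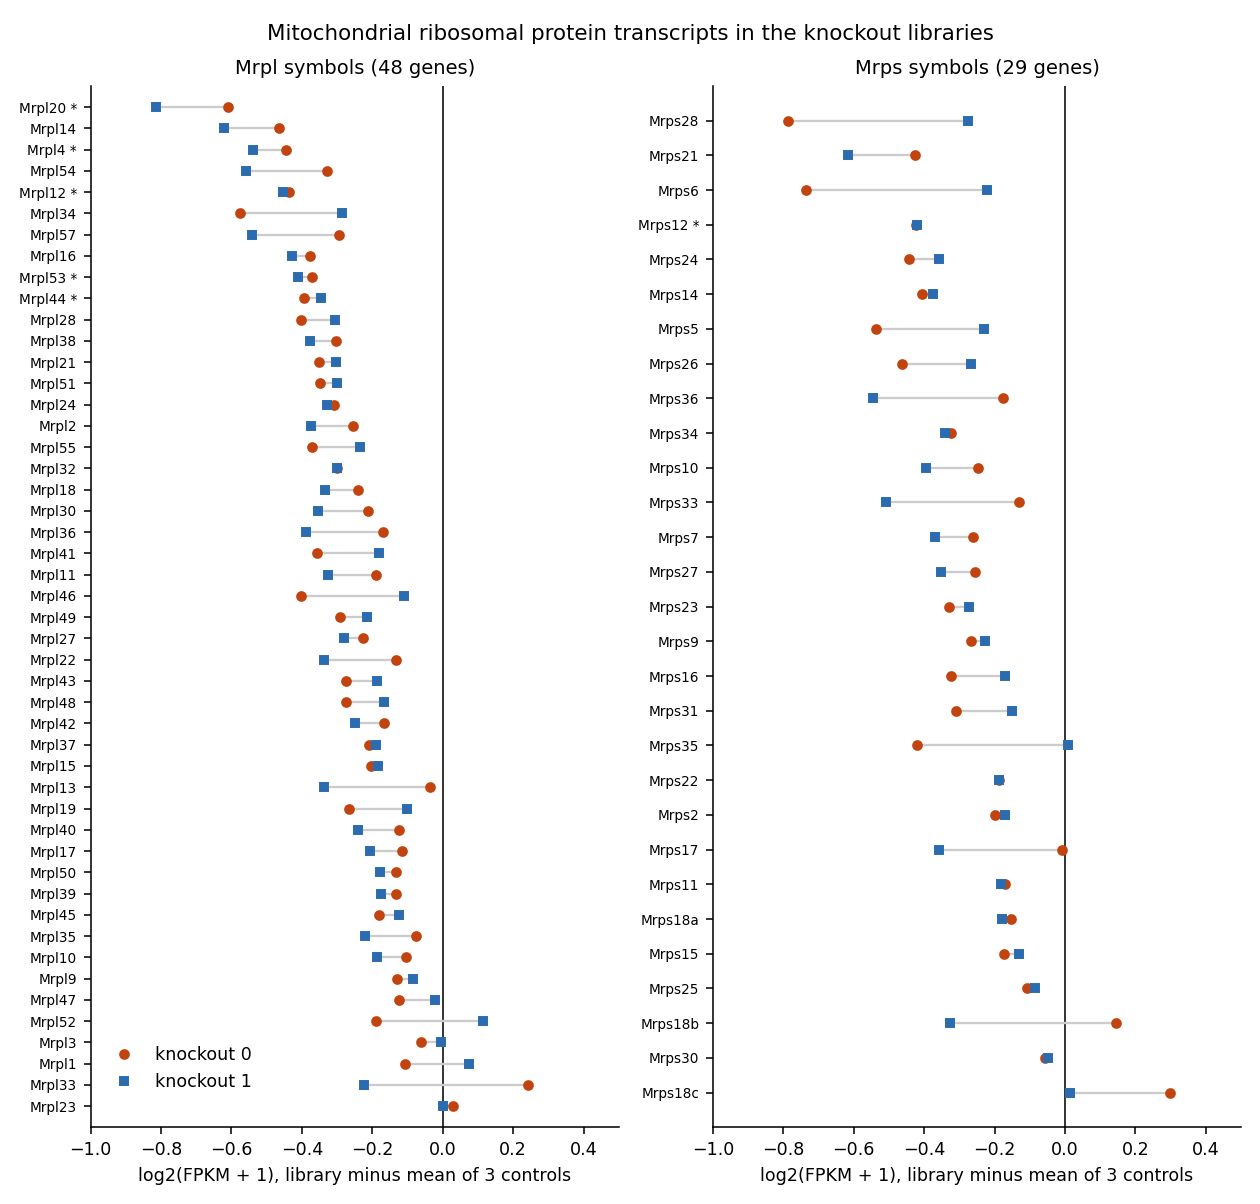
Difference of each knockout library from the mean of the 3 controls on the log2(FPKM + 1) scale, for the 48 Mrpl genes (left) and the 29 Mrps genes (right), ordered by the fitted fold change. Circles are knockout 0, squares are knockout 1, a grey line joins the 2 libraries of a gene, and an asterisk marks the 6 genes with a limma adjusted p under 0.05. Nearly all points lie left of 0.

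The total of the 77 transcripts was lower as well. Summed FPKM of the members was 4942 ± 96.9 (SD, n = 3) among the controls and stood at 82.0% of that mean in knockout 0 and at 79.8% in knockout 1. As a share of all FPKM in the library, the members took 0.978% ± 0.0209 (SD, n = 3) among the controls, against 0.822% (knockout 0) and 0.852% (knockout 1). The ratio of summed Mrpl to summed Mrps levels was 1.596 ± 0.012 (SD, n = 3) among the controls, against 1.63 (knockout 0) and 1.606 (knockout 1). Gene by gene, the mean of the knockout libraries was at a median of 83.4% of the control mean, from 60.9% to 112%. The controls were tight by comparison, with a median coefficient of variation of 4.75% over the members.

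Members differed widely in level. Control means ran from an FPKM of 7.17 for Mrpl19 to 376.3 for Mrps21, with a median of 53.4. Mrps21, counterpart of bacterial protein S21, was at 376.8, 404.1 and 348.0 in the controls, then 279.3 in knockout 0 and 244.9 in knockout 1. Both knockout libraries lay below every control, but the difference of -0.52 (SE 0.11) just missed the threshold (adjusted p = 0.0536). After Mrps21 the highest members were Mrpl12, Mrpl20 and Mrpl42, a protein specific to mitochondria. Mrpl42 was at 192.5, 192.8 and 193.1 in the controls and at 171.6 and 161.9 in the knockout libraries, a difference of -0.21 (adjusted p = 0.135). At the low end of the large subunit, Mrpl19 was at 7.06, 6.89 and 7.57, then 5.79 and 6.62, and Mrpl17 at 9.01, 9.02 and 9.18, then 8.29 and 7.72. Both pairs lay below their controls without passing (adjusted p = 0.217 and 0.179). Mrps25 and Mrps27, the lowest of the small subunit, had differences of -0.10 (adjusted p = 0.412) and -0.30 (adjusted p = 0.135).

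The large subunit held 5 of the 6 called genes. Of its 30 bacterial-type proteins, 3 were called lower, against 3.62% of all tested genes. Fold changes were negative for 28 of the 30 (median -0.27), against 53.0% of all tested genes. Mrpl20, counterpart of bacterial L20, a protein that binds ribosomal RNA early in assembly, had the largest fall. The controls were at 201.2, 201.4 and 185.4, knockout 0 at 127.9 and knockout 1 at 110.9 FPKM. The libraries did not overlap, and the fitted difference was -0.71 on the log2 scale (SE 0.096, 95% interval -0.95 to -0.47, adjusted p = 0.0258). Mrpl20 lies at chr4:155802878-155809975 on the plus strand.

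Mrpl4 and Mrpl12 were the other called genes of this class. Mrpl4, counterpart of bacterial L4 at chr9:21002738-21008839 on the plus strand, was at 83.1, 86.2 and 79.3 in the controls and 60.6 and 56.7 in the knockout libraries (log2 -0.49, SE 0.076, adjusted p = 0.0324). Mrpl12, at chr11:120484613-120489065 on the plus strand, is the counterpart of the L7/L12 stalk protein, which recruits translation factors, and it has also been reported to bind the mitochondrial RNA polymerase. Its controls were at 245.2, 231.6 and 249.97, knockout 0 at 178.8 and knockout 1 at 176.5 (log2 -0.44, SE 0.076, adjusted p = 0.0385). The knockout libraries were close to each other in both genes and far from the lowest control.

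The other stalk proteins had smaller fitted differences than Mrpl12. Mrpl10, which anchors Mrpl12 to the ribosome, was at 61.8, 60.2 and 60.5 in the controls and 56.5 and 53.3 in the knockout libraries (log2 -0.15, adjusted p = 0.219). Mrpl11, at the base of the stalk, was at 16.0, 16.3 and 15.8, then 13.9 and 12.6 (log2 -0.26, adjusted p = 0.0911). All 3 stalk genes had both knockout libraries below every control, and the differences between the 3 genes were not tested. Mrpl14 had the second largest fall of the members, from 74.5, 89.9 and 75.5 to 57.4 and 51.5 (log2 -0.54, SE 0.11), and missed the threshold (adjusted p = 0.0542). Other bacterial-type members just outside it were Mrpl16 (adjusted p = 0.0532) and Mrpl28 (adjusted p = 0.0544).

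At the other end of this class stood Mrpl3, Mrpl1, Mrpl33 and Mrpl23. Mrpl3, counterpart of L3 near the peptidyl transferase centre, was at 29.6, 26.1 and 27.2 in the controls and 26.4 and 27.5 in the knockout libraries (log2 -0.03, 95% interval -0.23 to 0.17). Mrpl23 was at 58.7, 73.5 and 60.7, then 65.3 and 64.1 (log2 0.01, 95% interval -0.27 to 0.30). In both genes the knockout libraries lay within the range of the controls. Mrpl1 had a difference of -0.02 and Mrpl33 one of 0.01, with the knockout libraries on opposite sides of the control mean. The sign of these 4 genes was not stable: Mrpl1, Mrpl3, Mrpl23 and Mrpl33 were negative under 11, 12, 3 and 2 of the 15 alternative settings.

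Of the 20 large-subunit members specific to mitochondria, 2 were called lower, against 3.62% of all tested genes. All 20 had a negative fold change (median -0.23), against 53.0% of all tested genes. Mrpl53, at chr6:83109040-83109939 on the plus strand, had the tightest controls of the called genes, at 75.3, 75.8 and 76.0, against 58.3 in knockout 0 and 56.7 in knockout 1 (log2 -0.39, SE 0.065, adjusted p = 0.0367). Mrpl44, at chr1:79776018-79781445 on the plus strand, has a fold like that of RNase III and is needed for assembly of the large subunit. Its controls were at 42.1, 39.4 and 40.5, knockout 0 at 30.7 and knockout 1 at 31.8 (log2 -0.37, SE 0.068, adjusted p = 0.0439). Mrpl38 just missed the threshold (log2 -0.34, adjusted p = 0.052). The pair with Mrps names in this class had both knockout libraries below every control, without passing the threshold. Mrps30 was at 28.5, 27.2 and 27.9, then 26.7 and 26.9 (log2 -0.05, adjusted p = 0.622). Mrps18a was at 80.5, 78.1 and 82.5, then 72.1 and 70.8 (log2 -0.17, adjusted p = 0.179). Mrps30 had a positive sign under 1 of the 15 alternatives.

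**Figure D2:**
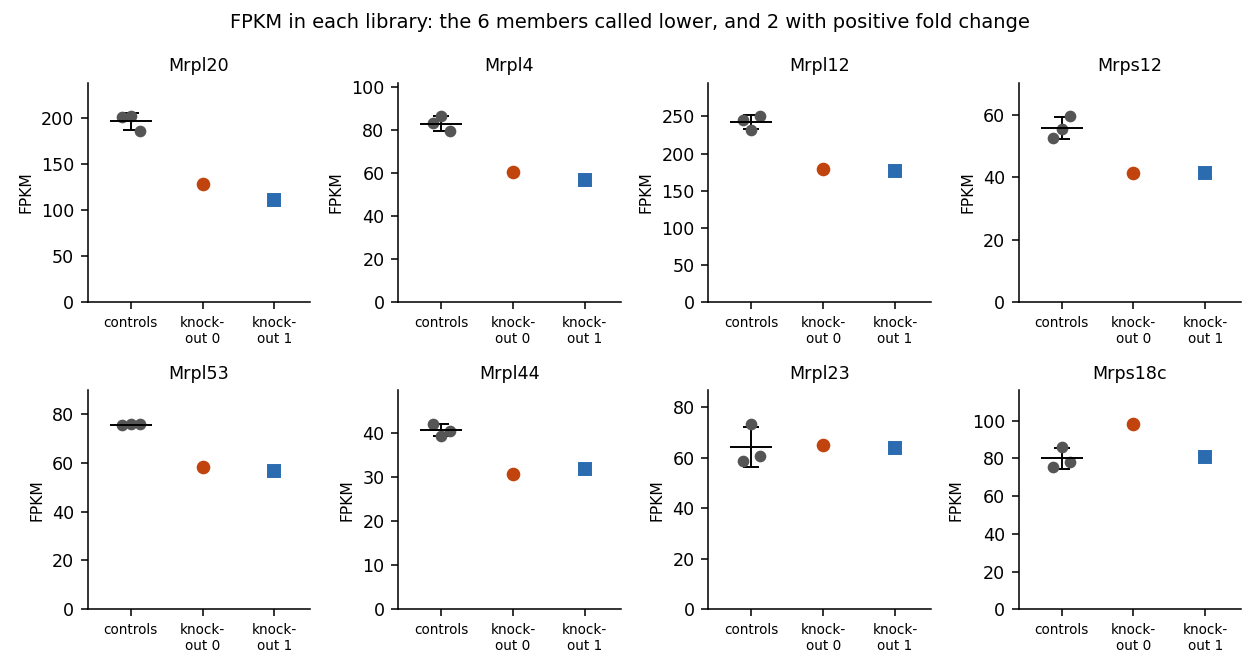
FPKM in each library for the 6 genes called lower by limma and for Mrpl23 and Mrps18c, both with a positive fitted fold change, on linear axes from 0. Grey points are the 3 controls with their mean (long bar) and SD (whiskers), the circle is knockout 0 and the square is knockout 1. In the 6 called genes both knockout libraries lie below the lowest control.

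The small subunit had 1 called gene among its 16 bacterial-type proteins (6.25%, against 3.62% of all tested genes). Fold changes were negative for 15 of the 16 (93.8%, against 53.0% of all tested genes), with a median of -0.32. Mrps12, counterpart of S12 in the decoding centre, lies at chr7:28739641-28741820 on the minus strand. It was at 52.6, 55.6 and 59.5 in the controls and at 41.4 in both knockout libraries (log2 -0.42, SE 0.079, adjusted p = 0.0455). The larger fitted falls of Mrps28 and Mrps6 did not pass, and there the knockout libraries differed from each other. Mrps28 was at 50.3, 54.7 and 58.6, then 31.2 in knockout 0 and 44.8 in knockout 1 (log2 -0.53, SE 0.17, adjusted p = 0.113). Mrps6 was at 128.1, 128.4 and 132.7, then 77.5 and 111.1 (log2 -0.48, SE 0.16, adjusted p = 0.124). Both knockout libraries were below every control in these genes too, with knockout 0 far lower.

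Among the other bacterial-type small-subunit proteins, Mrps2, Mrps7 and Mrps16 had differences of -0.18, -0.32 and -0.25 (adjusted p = 0.174, 0.0822 and 0.152), each with both knockout libraries below every control. Variants in the human counterparts of Mrps2, Mrps7, Mrps16, Mrps22 and Mrps34 are known causes of deficient mitochondrial translation. The largest positive fold change of all members was that of Mrps18c, 1 of 3 homologues of bacterial S18 (with Mrps18a and Mrps18b). Mrps18c was at 75.5, 86.2 and 78.1, then 98.3 in knockout 0 and 80.6 in knockout 1. Knockout 0 lay above every control and knockout 1 among them (log2 0.16, SE 0.11, 95% interval -0.13 to 0.44, adjusted p = 0.414).

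None of the 10 small-subunit proteins specific to mitochondria was called by limma, against 3.62% of all tested genes called lower. All 10 had negative fold changes (against 53.0% of all tested genes), with a median of -0.27. Unadjusted p fell under 0.05 for 6 lower ones (60.0%, against 16.6% of all tested genes). Mrps34 was at 66.2, 68.4 and 73.6 in the controls and 55.1 and 54.5 in the knockout libraries (log2 -0.33, adjusted p = 0.0645). Mrps22 was at 28.5, 27.3 and 25.8, then 23.8 and 23.7 (log2 -0.19, adjusted p = 0.158). In both genes the knockout libraries agreed closely and lay below all controls. Mrps18b showed no common direction, at 50.1, 41.8 and 42.4, then 49.5 in knockout 0 and 35.4 in knockout 1 (log2 -0.09, adjusted p = 0.754). Mrps36, the gene outside the ribosome, was at 131.7, 137.2 and 118.3, then 114.0 and 88.0 (log2 -0.36, SE 0.14, adjusted p = 0.157).

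The knockout libraries were alike over the members as a group. The median difference from the control mean was -0.26 in knockout 0 and -0.27 in knockout 1. Knockout 0 lay below every control in 69 members, against 43.9% of all tested genes, and knockout 1 in 71, against 38.5%. The members' median difference between the knockout libraries, knockout 1 minus knockout 0, was -0.01, and 58 of 77 members differed by at most 0.2. The widest gaps were 0.51 for both Mrps28 and Mrps6 and 0.43 for Mrps35, which were lower in knockout 0, and -0.47 for Mrps18b and -0.46 for Mrpl33, which were lower in knockout 1.

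Apart from those of the proximal tubule, summed markers differed more between the knockout libraries than the members' sum did (82.0% and 79.8% of the control mean). As a percentage of the control mean, in knockout 0 and knockout 1, summed FPKM of 7 macrophage markers was 401% and 138%, of 6 fibroblast markers 229% and 125%, of 7 lymphocyte markers 281% and 149%, and of 5 tubule injury markers 3010% and 117%. The 8 proximal tubule markers with no 0 stood at 70.0% and 69.0%, from 3656, 3529 and 3378 in the controls to 2465 and 2431. Distal convoluted tubule markers (4) were at 50.3% and 85.5%, collecting duct markers (7) at 76.1% and 97.7%, podocyte markers (5) at 81.5% and 121%, endothelial markers (6) at 101% and 114%, and cell division genes (6) at 164% and 114%. The 3 thick ascending limb markers with no 0 were at 59.6% and 125%. The proximal tubule sum rested largely on Miox (1884, 1946 and 1585, then 1246 and 1283), and gene by gene that list was mixed. Of its 9 tested genes 6 were negative and 3 positive, 1 of the latter through a 0 in every control, with a median difference of -0.22 in knockout 0 and -0.03 in knockout 1. Cubn, a receptor for filtered proteins, went the other way, at 39.1, 42.1 and 38.2, then 50.9 and 61.1 (log2 0.48, adjusted p = 0.0582). In whole-kidney RNA fewer cells of a type and less RNA per cell cannot be told apart, and the part of cell composition in the members' shift was not tested.

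Other components of the mitochondrial ribosome had a median difference near that of the members. Genes that work beside it had smaller median differences, mostly of the same sign. Over all tested genes 53.0% were negative, 3.62% were called lower and 16.6% were lower at an unadjusted limma p under 0.05. These shares serve for the next paragraph too. The 6 ribosome components with other symbols, such as Dap3, were all below every control in both knockout libraries, with 0 called lower and 3 lower at an unadjusted p under 0.05 (median -0.25). Dap3 was at 17.1, 18.7 and 17.3 in the controls and 15.4 and 15.9 in the knockout libraries (adjusted p = 0.197). Among 27 assembly factors 26 had a negative fold change (median -0.17), with 0 called by limma and 11 lower at an unadjusted p under 0.05. All 16 translation factors were negative (median -0.16), and 1 was called lower: Mtif3, an initiation factor, went from 12.2, 11.2 and 11.8 to 8.89 and 8.49 (log2 -0.39, adjusted p = 0.0394). The elongation factor Tufm had a difference of -0.32 (adjusted p = 0.0687), and Lrpprc, which stabilises mitochondrial messenger RNAs, one of -0.15 (adjusted p = 0.205). Of 17 mitochondrial aminoacyl-tRNA synthetases 12 were negative (median -0.14), and Fars2 (log2 -0.42, adjusted p = 0.0307) and Yars2 (log2 -0.47, adjusted p = 0.0358) were called lower.

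The genes for mitochondrial transcription were mostly negative too, whereas the regulators of mitochondrial gene programmes were mixed in sign. Of 9 tested genes for transcription and upkeep of mitochondrial DNA, 8 were negative (median -0.18) with 0 called by limma and 3 lower at an unadjusted p under 0.05. Tfam, the packaging and transcription factor, was at 16.7, 15.7 and 16.8, then 12.9 in knockout 0 and 15.2 in knockout 1 (adjusted p = 0.194), and Polrmt, the RNA polymerase, is listed at 0 in all 5 libraries. Of 9 regulators 5 were negative (median -0.05). The coactivator Ppargc1a was at 17.0, 16.5 and 17.9, then 13.0 in knockout 0 and 20.96 in knockout 1, on opposite sides of the controls (log2 -0.05, adjusted p = 0.895). Gabpb1, a subunit of the ETS factor GABP, was called higher, from 7.82, 8.02 and 7.07 to 14.0 and 10.999 (log2 0.64, SE 0.12, adjusted p = 0.0439). Among 14 import and outer membrane proteins all were negative (median -0.20), and Vdac1 alone was called lower (log2 -0.45, adjusted p = 0.0475). The 13 protein genes of the mitochondrial genome were not found among the listed genes under the symbols searched, so their transcripts were not analysed.

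Other multi-protein complexes of nuclear genes differed in the size of their medians. The 44 tested Nduf genes (median -0.36) were taken by symbol, which names subunits and assembly factors of respiratory complex I. Whether each belongs to that complex was not checked. Of these, 42 were negative (95.5%), 7 were called lower (15.9%) and 40 had both knockout libraries below every control (90.9%). Over all tested genes these shares were 53.0%, 3.62% and 26.3%. Of the 83 tested Rpl and Rps genes of the cytosolic ribosome, close paralogues included, 67 were negative (80.7%, median -0.09). Among them 1 was called lower (1.2%) and 17 had both knockout libraries below every control (20.5%). The 9 tested genes with such symbols that encode S6 kinases or Rps19bp1 were left out, a choice made after their values were seen, and with them the median was -0.08. The members' median thus lay between those of the Nduf genes and of the cytosolic ribosome. These groups share the same 5 libraries, and differences between the groups were not tested.

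**Figure D3:**
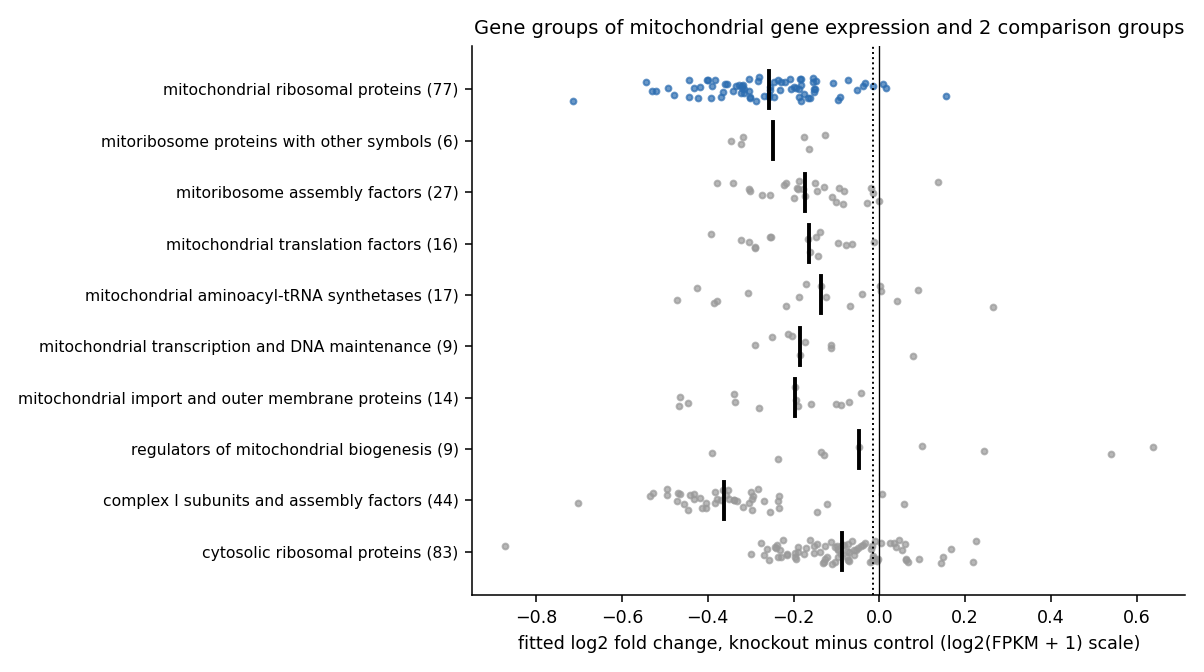
Fitted log2 fold change, knockout minus control on the log2(FPKM + 1) scale, for each tested gene of 10 groups, with the number of genes in brackets. Each point is a gene, spread vertically for display, the thick bar is the group's median, the solid line is 0 and the dotted line is the median of all tested genes (-0.02). The medians of the members (-0.26) and of the Nduf genes, labelled as complex I (-0.36), lie left of that of the cytosolic ribosomal proteins (-0.09).

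Within the members the difference went with transcript length and with level. Lengths were taken as the longest GENCODE M21 transcript of each gene, which need not be the length the authors divided by. The median log2 fold change was -0.39 for the 17 members of at most 1000 bases, -0.30 for the 24 of up to 2000, -0.21 for the 14 of up to 3000 and -0.19 for the 22 longer ones. Other tested genes followed the same order, with medians of -0.16 (634 genes), -0.08 (2055 genes), -0.03 (2562 genes) and 0.01 (6703 genes). In each of the 4 classes the members' median was thus below that of other genes. Across the 77 members, which share libraries and are not independent, Spearman's rho was 0.414 between length and fold change, -0.392 between control level and fold change, and -0.451 between length and level. The parts of length and of level in the shift were not tested apart.

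**Figure D4:**
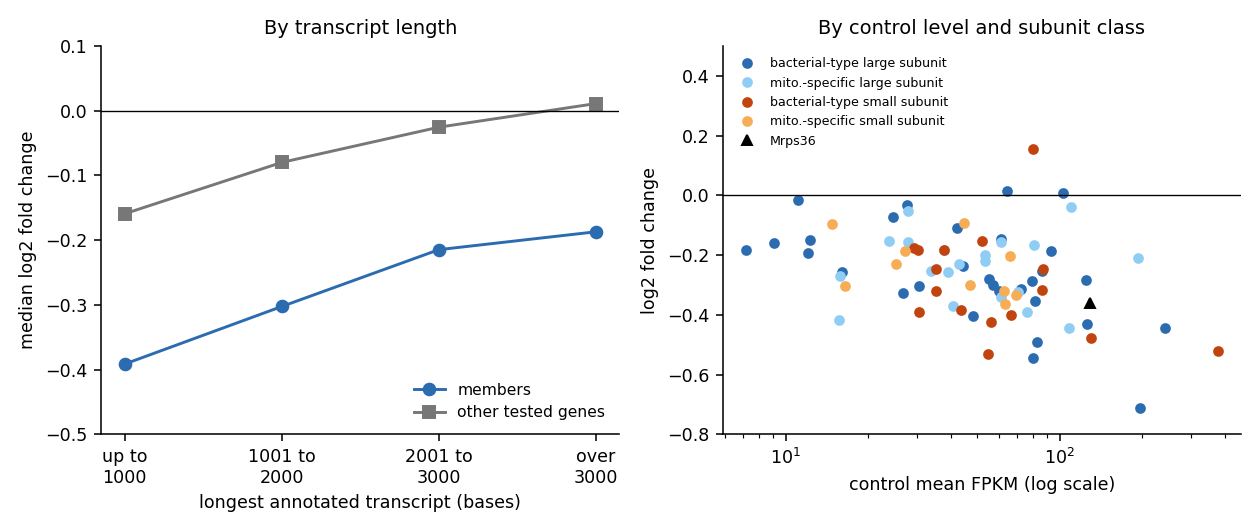
Left, median log2 fold change (knockout minus control) by length of the longest annotated transcript in bases, for the members (circles) and for other tested genes (squares), as lines that join 4 classes of length. Right, fitted log2 fold change of each member against its mean control FPKM on a log axis, coloured by subunit class, with Mrps36 as a triangle. The medians of the members run from -0.39 to -0.19 and lie below those of other genes in each class.

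Many members sit close to a neighbour. In GENCODE M21, 29 of the 77 (37.7%) have a gene on the opposite strand that starts within 1000 bases of their own start, against 14.8% of tested genes (1776 of 12031). Mrpl46 and Mrps11 are each other's neighbour, with starts 412 bases apart. The 29 neighbours had a median log2 fold change of -0.10, with 19 negative and 10 positive, and 2 were called lower. Over all tested genes 53.0% were negative and 3.62% were called lower. Wdfy1, whose start lies 125 bases from that of Mrpl44, went from 32.5, 31.5 and 32.9 to 18.7 and 21.998 (log2 -0.65, adjusted p = 0.0262), and Apba3, 26 bases from Mrpl54, had a difference of -0.31 (adjusted p = 0.0482). Sars2, 172 bases from Mrps12, stayed within the range of its controls, at 7.82, 7.04 and 7.77, then 7.65 and 7.46.

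Some values cannot be assigned to 1 gene with certainty. Exons of 23 members overlap those of another listed gene, 20 of them on the opposite strand, among them Mrpl44 with Wdfy1 (126 bases) and Mrpl14 with Tmem63b (106 bases). Strandedness of the counting is not given in the sources used here, so reads from the 2 strands may not be separated. In 7 members (Mrpl22, Mrpl27, Mrpl53, Mrps18b, Mrps21, Mrps25 and Mrps34) a transcript of another gene holds a stretch of at least 95% identity over at least 50% of their length. For Mrpl53 and Mrps21 these are the gene models Gm42688 and Gm6181. For Mrps25 and Mrps34 they are Nr2c2 and Mapk8ip3, which overlap them on the opposite strand and are already among the overlaps above. The called falls of Mrpl20, Mrpl4, Mrpl12 and Mrps12 involve none of these overlaps or copies.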

How the data were processed

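Total RNA of whole kidneys was extracted with TRIzol and 1 µg per library was prepared with an Illumina mRNA kit, per the labels' protocols. The authors deposited 1 table of FPKM with a column for each of the 5 libraries, and all value columns were matched to a library by title. The mm10 build and bcl2fastq are named in the submitters' processing notes. The aligner is not given in the sources used here, nor are the quantifier, annotation and strandedness. Depth is unknown, so no counting interval is given.

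Groups were compared on log2(FPKM + 1), for all rows whose mean FPKM reached 1, with limma 3.58.1 (two-sided, moderated variances with a trend) under R 4.3.3, with Benjamini-Hochberg adjustment and a threshold of 0.05. The pseudocount understates the change of low genes. All adjusted p-values come from this fit. Its check on simulated data gave every library the spread of the controls, so a wider spread between knockout libraries was not covered. Over tested genes the correlation was 0.9605 between the knockout libraries and 0.9885 to 0.9904 among the controls. Single values were also compared with an exact two-sided permutation test. Positions, lengths, overlaps and copies come from GENCODE M21 and promoter sequences from RefSeq (GRCm38.p6). Tables were handled with Python 3.11.15, pandas 2.3.3 and numpy 2.4.6, and figures with matplotlib 3.10.9.

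The members, gene lists and tests were chosen with earlier results of these data known. Members were named if called, if among the 4 largest falls or rises, if among the 3 highest or 2 lowest by level for each symbol type, or by role (31 in all). Mrpl16, Mrpl28, Mrpl38, Mrpl46, Mrpl54, Mrps11, Mrps35, those with copies and the neighbours were named after their values were seen. The 15 alternatives were another pseudocount, 2 other filters, 3 scalings, 2 variance settings, a replicate block, rows with a 0 left out, and each library left out.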

Additional observations from a re-analysis of the deposited data

How the results depend on the processing

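No member was called higher under any of the 15 alternatives, and 69 to 74 of the 77 had a negative fold change. The count called lower by limma, 6 as reported, was 11 (14.3%, against 5.93% of all genes) with a mean FPKM of at least 5, 2 (2.60%, against 2.10%) after rescaling to TPM, 1 (1.30%, against 2.44%) after quantile normalization and 0 (against 0.0237%) under a replicate block. The members' share of calls was thus near the background under TPM and below it under quantile normalization. It ranged from 0 to 19 with each library left out in turn. The median log2 fold change, -0.26 as reported, was -0.26 with a pseudocount of 0.1, -0.18 after rescaling to TPM, -0.24 after median-of-ratios scaling, -0.20 after quantile normalization and -0.27 with the replicate block, and from -0.27 to -0.25 with each library left out. Over all genes limma called 345 higher and 457 lower, but 454 higher and 266 lower after rescaling to TPM. That rescaling divides by summed FPKM, which was lower in both knockout libraries, and the median over all genes went from -0.02 to 0.06. Less the all-gene median, the members' median was -0.24 as reported, after TPM and after median-of-ratios scaling, and -0.16 after quantile normalization. The cause of the lower sums was not tested. The replicate block left 28 calls over all genes (3 lower). The data cannot settle if the replicate numbers of the titles pair the libraries. The correlation of deviations from the group means was 0.0863 for libraries numbered 0 and 0.00236 for those numbered 1. With only 2 knockout libraries their deviations mirror each other, so no conclusion is drawn from these values. Precision is limited by the number of libraries, by the absence of stated depth and by the difference in sex transcripts.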
